A study of Mus musculus with 12 samples.

Results

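The genes described here carry glucose into heart muscle cells, break it down to pyruvate and lactate, store it as glycogen and pass pyruvate into the mitochondria. They are 35 genes, taken by symbol from the 23457 rows of a deposited table of read counts per gene. All 35 had a row, and 34 passed a filter on low counts and were tested. The counts come from 6 Parkin KO hearts and 6 noninduced hearts of adult C57BL/6J mice. The Parkin KO mice were labelled floxed with MERCreMer and as induced in the adult to delete Parkin. The noninduced mice were labelled floxed and non-Cre. All 12 hearts carried the floxed alleles and were labelled as taken 9 to 10 weeks after tamoxifen, and the protocol names the ventricular apex where the tissue label names the whole heart. Polyadenylated RNA was sequenced without strand information. Parkin is an E3 ubiquitin ligase that tags damaged mitochondria for removal, and the comparison asked what its deletion in the adult does to heart messenger RNA. MerCreMer joins Cre recombinase to parts of the estrogen receptor, and tamoxifen lets it enter the nucleus. The labels do not name the promoter that drives it. It was present by label in the Parkin KO group alone, so its own effects and those of Parkin loss cannot be told apart.

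The adult heart draws most of its energy from fatty acids, and glucose is the main alternative fuel. Glucose enters through the transporters GLUT1 and GLUT4, is trapped by hexokinase and is committed to glycolysis by phosphofructokinase. Several steps have a muscle-type enzyme and a more general one, encoded by separate genes. Pyruvate can be turned to lactate by lactate dehydrogenase or oxidized by the pyruvate dehydrogenase complex of the mitochondrial matrix, which kinases switch off and phosphatases switch on. Glycogen is a local store of glucose, built by glycogen synthase and broken down by glycogen phosphorylase.

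The libraries held 11610507 to 16884516 counted reads. Esr1, the estrogen receptor gene on which MerCreMer reads can be counted, had 1550 to 4680 reads scaled to library size (CPM) in Parkin KO libraries. It had 558 CPM in the library labelled noninduced 1 and 962 CPM in the library labelled noninduced 3, where noninduced 2, 4, 5 and 6 had 24 to 64.9 CPM, so these 2 libraries go against their labels. Parkin KO libraries 2, 5 and 6 came from males by Xist and Y-linked reads, Parkin KO libraries 1, 3 and 4 and the noninduced libraries other than 3 came from females, and noninduced 3 held both kinds of reads. Genes of mitochondrial DNA took 5.17% to 9.53% of the reads in Parkin KO libraries and 16.0%, 16.7% and 10.5% in noninduced 1, 2 and 3, against 6.65% to 8.04% in noninduced 4, 5 and 6. The 7 cardiomyocyte markers, none of them at 0, summed to 80620 to 98550 CPM in Parkin KO libraries and 61030 to 88080 CPM in noninduced libraries (means 88130 ± 7240 and 76020 ± 9090, SD, n = 6 each; two-sided exact permutation test, p = 0.0281, and 0.131 adjusted over the 14 measures of the libraries). The adipocyte markers summed to 316.6 ± 35.8 CPM in Parkin KO libraries, against 252.8 ± 39.3 CPM in the noninduced libraries, and the endothelium markers to 888.4 ± 46.4 CPM, against 954.2 ± 55.0 CPM (exact permutation p = 0.0108 and 0.0455, adjusted p = 0.0756 and 0.159). Only 1 of the 5 adipocyte markers passed the low-count filter, so that sum rests mainly on 1 gene and is a weak measure of adipocytes. Fibroblast, smooth muscle, macrophage and red blood cell sums had adjusted p of 0.256 or more in the same exact test. The 6 atrial markers summed to 158 to 1550 CPM in Parkin KO libraries and 121 to 5990 CPM in noninduced libraries, with noninduced 2, 5 and 6 highest (exact permutation p = 0.115, adjusted p = 0.256). Gene by gene all 6 were lower in Parkin KO hearts at an unadjusted p under 0.05 in edgeR, against 5.54% of all genes tested, and 0 passed after adjustment. The 6 skeletal muscle markers summed to at most 2.75 CPM in Parkin KO libraries, against 3.38 CPM in the noninduced libraries.

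No difference between the groups passed the test for any of these glucose-use genes, and their log2 fold changes, Parkin KO over noninduced, ran from -0.54 to 0.31. None of the 34 tested genes passed the edgeR quasi-likelihood test after Benjamini-Hochberg adjustment over all genes, where the smallest adjusted p among them was 0.417, and none passed in DESeq2 or limma-voom. The same test called 0 of 13050 genes (0.0%), DESeq2 called 10 genes (0.0766%) and limma-voom called 0. At an unadjusted p under 0.05, 6 of the 34 genes (17.6%) were higher in Parkin KO hearts, against 760 (5.82%) of all genes tested, and 1 (2.94%) was lower, against 723 (5.54%). With mitochondrial DNA genes left out before scaling, 614 genes were higher and 888 lower, and among the members 5 and 1. The 6 were Pfkm, Pfkl, Ldhb, Pdha1, Pdhb and Dld, and the 1 was Gapdh. For none of the 34 genes were the groups free of overlap, which held for 45 (0.345%) of all genes tested. The median log2 fold change, Parkin KO over noninduced, was 0.09 over the 34 genes and 0.01 over all genes. The 95% confidence interval lay within 1 log2 unit of 0 in either direction for 32 of the 34 genes, and for 12180 of all 13050 genes tested.

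By step, the median log2 fold change was 0.29 over the 3 phosphofructokinase genes, 0.27 over the 2 lactate dehydrogenase genes and 0.20 over the 5 genes of the pyruvate dehydrogenase complex. It was 0.12 over the 9 genes of lower glycolysis and 0.04 over the 5 glycogen genes. Below 0 were hexose phosphorylation and isomerization (-0.03, 3 genes), glucose uptake (-0.05, 2 genes), the fructose-2,6-bisphosphate enzymes (-0.06, 2 genes) and the tested pyruvate dehydrogenase kinases with the phosphatase (-0.20, 3 genes). Steps were not tested against each other.

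**Figure D1:**
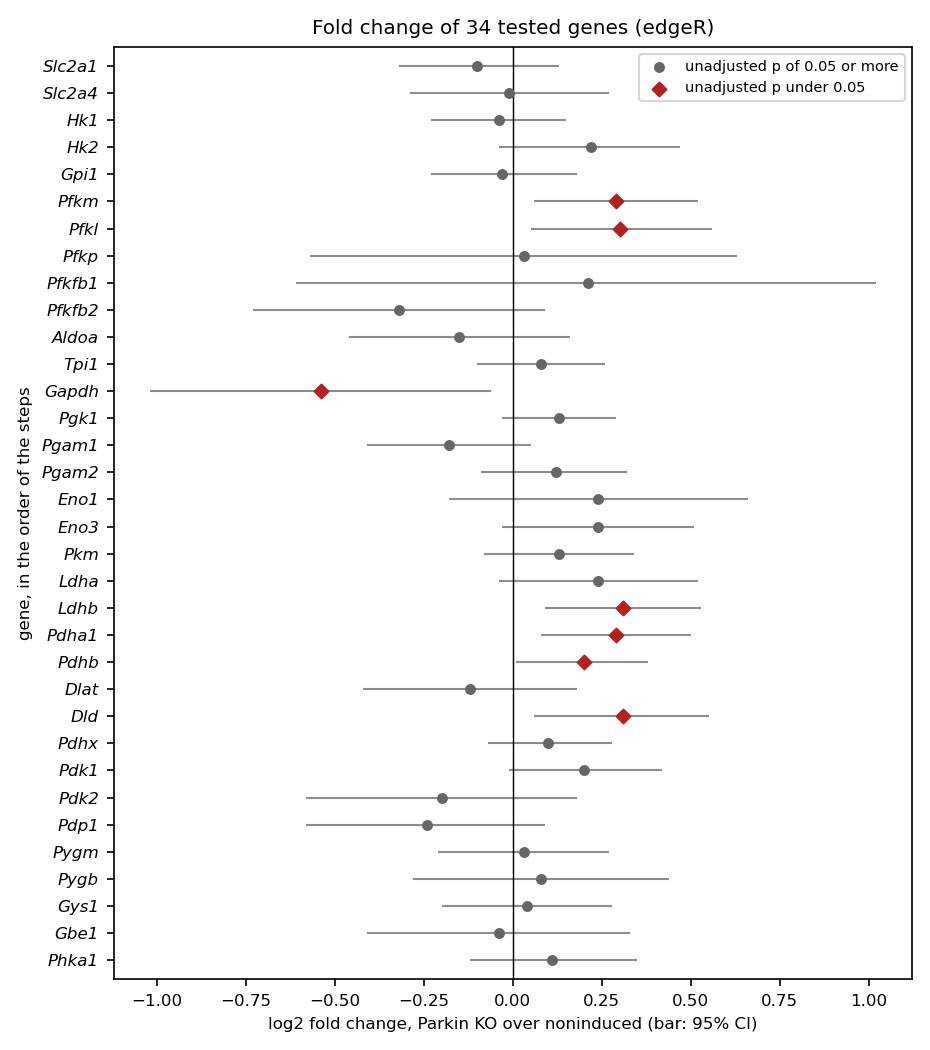
Log2 fold change of each tested gene (x axis, Parkin KO over noninduced, edgeR) with its 95% confidence interval, by gene in the order of the steps (y axis). Red diamonds mark the 7 genes at an unadjusted p under 0.05, from -0.54 for Gapdh to 0.31 for Ldhb and Dld, and 22 of 34 points lie above 0.

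Levels of different genes can be compared per transcript length, as fragments scaled to transcript length and library size (FPKM), which the authors deposited. The 3 most abundant belong to lower glycolysis and lactate metabolism in both groups. Gapdh, glyceraldehyde-3-phosphate dehydrogenase, averaged 4400 ± 559 FPKM in Parkin KO and 5760 ± 1540 FPKM in noninduced hearts (SD, n = 6 each). Aldoa, the muscle aldolase, averaged 3730 ± 340 and Ldhb, the heart-type lactate dehydrogenase, 1290 ± 60.6 FPKM in Parkin KO hearts, against 4010 ± 544 and 1030 ± 184 FPKM in noninduced hearts. Gapdh and Aldoa made up 29.4% and 22.4% of the summed FPKM of the 35 genes over all libraries. Pgam2, Eno3, Pkm, Pygm, Tpi1 and Pdk2 followed, at 485 to 978 FPKM on average in Parkin KO and 531 to 886 FPKM in noninduced hearts. Pdk3 was lowest, at 0.156 ± 0.0648 FPKM in Parkin KO and 0.273 ± 0.192 FPKM in noninduced hearts. It is a kinase of the pyruvate dehydrogenase complex, and with 2 to 16 reads in a library it was the 1 gene that did not pass the filter.

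**Figure D2:**
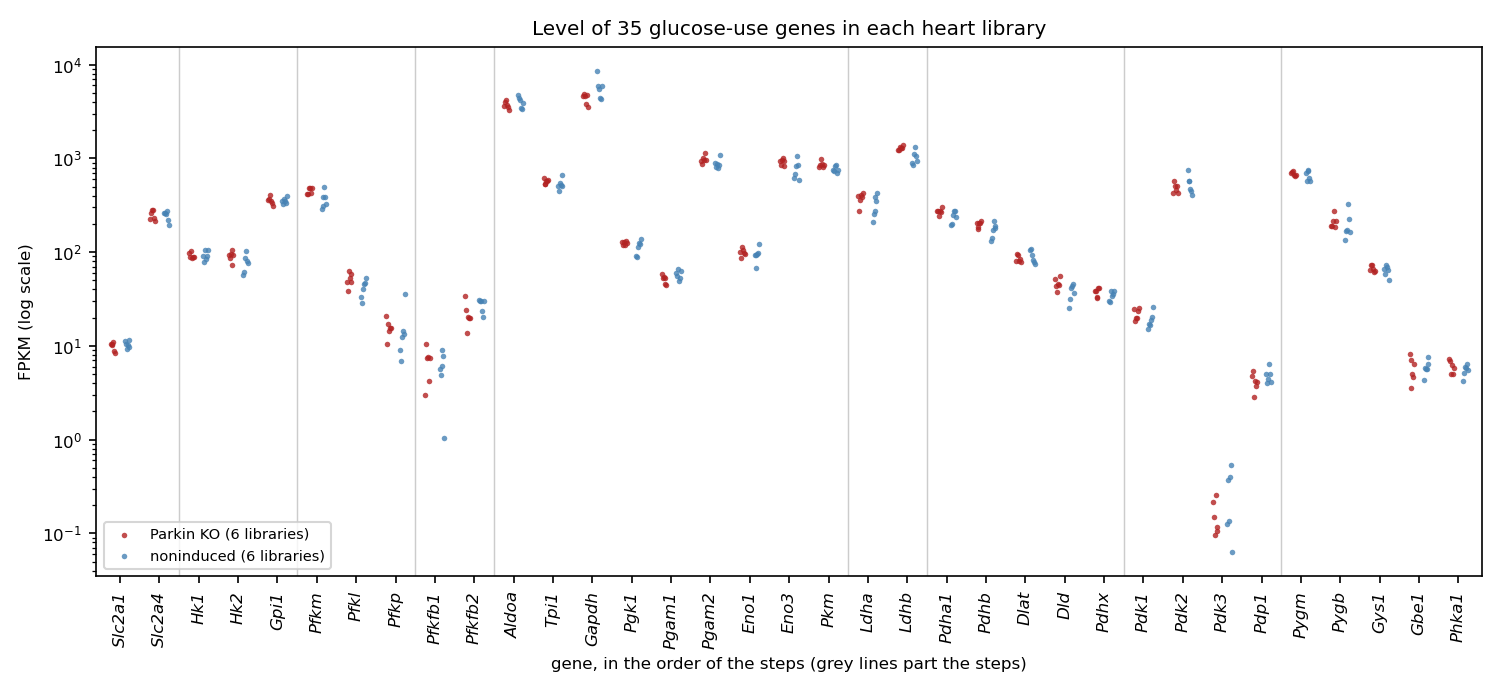
FPKM of each of the 35 genes in every library (y axis, log scale), by gene in the order of the steps (x axis), with Parkin KO libraries in red on the left of each gene and noninduced libraries in blue on the right. Gapdh and Aldoa stand highest and Pdk3 lowest in both groups, and the ranges of the red and blue points overlap for every gene.

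For the glucose transporters the groups differed by less than the spread between replicates. Slc2a4, which encodes the insulin-regulated transporter GLUT4, averaged 677 ± 85.3 CPM in Parkin KO hearts, against 682 ± 125 CPM in the noninduced hearts (log2 fold change -0.01, 95% confidence interval -0.29 to 0.27). Slc2a1, which encodes the basal transporter GLUT1, averaged 24.4 ± 2.89 CPM in Parkin KO hearts, against 26.1 ± 3.4 CPM in the noninduced hearts (-0.10, interval -0.32 to 0.13). Per length GLUT4 messenger RNA was 21.3 to 27.5 times that of GLUT1 in Parkin KO libraries and 16.7 to 27.6 times in noninduced libraries. The log2 fold change of Slc2a4 was above 0 in 14 of 26 alternative analyses and reached at most 0.17.

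The next step traps glucose in the cell. Hk1, the hexokinase that is found in most tissues, averaged 376 ± 25.8 CPM in Parkin KO hearts, against 388 ± 45.2 CPM in the noninduced hearts (log2 fold change -0.04 ± 0.089, SE). Hk2, the hexokinase of insulin-sensitive muscle, averaged 501 ± 58.8 CPM in Parkin KO hearts, against 431 ± 75.8 CPM in the noninduced hearts (0.22 ± 0.12, 95% confidence interval -0.04 to 0.47). In Parkin KO libraries 1 to 6 Hk2 had 512, 499, 528, 568, 392 and 506 CPM, and in noninduced libraries 1 to 6 it had 359, 369, 495, 550, 413 and 398 CPM. Noninduced 4 lay above every Parkin KO library except Parkin KO 4, and Parkin KO 5 lay below noninduced 3, 4, 5 and 6. For Hk1 the values were 395, 382, 416, 351, 361 and 354 CPM in Parkin KO libraries and 423, 356, 450, 339, 352 and 406 CPM in noninduced libraries, and the noninduced range enclosed the Parkin KO range. Gpi1, which turns glucose-6-phosphate into fructose-6-phosphate, averaged 973 ± 99.1 CPM in Parkin KO hearts, against 991 ± 87 CPM in the noninduced hearts.

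At the phosphofructokinase step, which commits sugar to glycolysis, the muscle and the liver subunit were both higher in Parkin KO hearts at an unadjusted p under 0.05. Neither passed after adjustment, and 5.82% of all genes tested were higher at the unadjusted threshold. Pfkm, the muscle subunit, lies on chromosome 15 from 98092589 to 98132451 of GRCm38. It had 1160, 1210, 1340, 1310, 1170 and 1300 CPM in Parkin KO libraries 1 to 6, and 910, 952, 1100, 1320, 998 and 852 CPM in noninduced libraries 1 to 6. Every Parkin KO library lay above the noninduced mean, and noninduced 4 lay among the highest Parkin KO libraries. The means were 1250 ± 79.4 CPM in Parkin KO hearts, against 1020 ± 169 CPM in the noninduced hearts (log2 fold change 0.29 ± 0.109, SE, adjusted p = 0.424, edgeR). Pfkl, the liver subunit, had 175, 148, 230, 189, 175 and 206 CPM in Parkin KO libraries and 136, 116, 153, 164, 161 and 181 CPM in noninduced libraries. Parkin KO 1, 2 and 5 lay within the noninduced range, and Parkin KO 3 was highest (log2 fold change 0.30 ± 0.119, SE, adjusted p = 0.424, edgeR). Pfkp, the platelet subunit, averaged 60.8 ± 12.8 CPM in Parkin KO hearts, against 59.2 ± 36.1 CPM in the noninduced hearts, and noninduced 6 stood apart at 131 CPM.

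Fructose-2,6-bisphosphate, a strong activator of phosphofructokinase, is made and removed by the Pfkfb enzymes. Pfkfb2, known as the heart isoform, averaged 88.1 ± 28.5 CPM in Parkin KO hearts, against 110 ± 21.9 CPM in the noninduced hearts (log2 fold change -0.32 ± 0.191, SE). Pfkfb1 averaged 10.6 ± 4.54 CPM in Parkin KO hearts, against 9.22 ± 4.17 CPM in the noninduced hearts. It had the largest coefficient of variation of the 34 tested genes among Parkin KO libraries, 42.7%, where the median gene had 11.4%. Among noninduced libraries the median over the 34 was 15.8% and the highest 61.0%, for Pfkp.

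**Figure D3:**
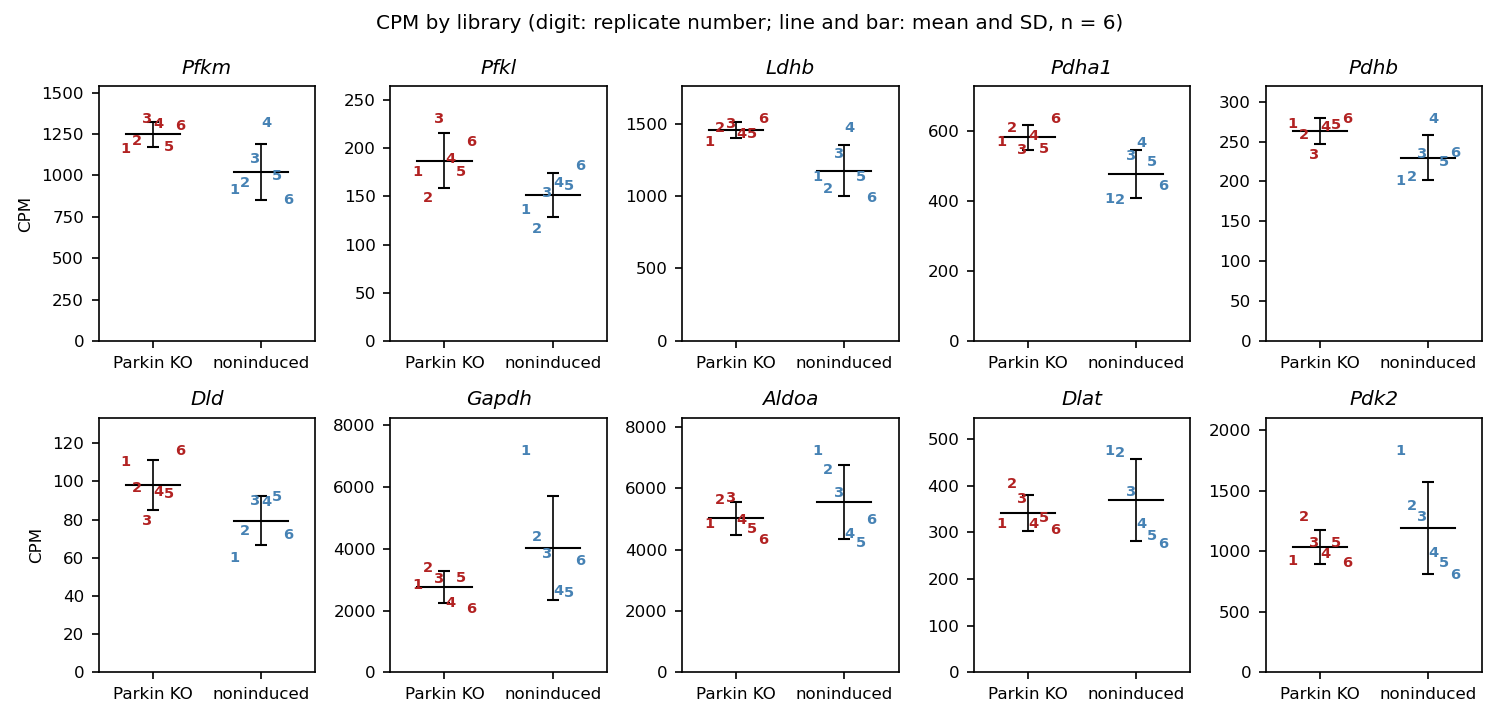
CPM in each library (y axis, from 0) for the 7 genes at an unadjusted p under 0.05 and for Aldoa, Dlat and Pdk2, with Parkin KO left and noninduced right. Each digit is a replicate number, the long line is the mean and the bar the SD (n = 6); noninduced 1 is highest for Gapdh (7170 CPM), Aldoa, Dlat and Pdk2.

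In lower glycolysis 6 of 9 genes had a log2 fold change above 0 and 3 below. Of the 9 genes 1, Gapdh, was lower at an unadjusted p under 0.05, against 5.54% of all genes tested. Gapdh lies on chromosome 6 from 125161715 to 125166467. It had 2830, 3380, 3020, 2250, 3050 and 2050 CPM in Parkin KO libraries 1 to 6, and 7170, 4380, 3820, 2630, 2580 and 3590 CPM in noninduced libraries 1 to 6. The library labelled noninduced 1 stood far above the others, while noninduced 4 and 5 lay inside the Parkin KO range. The log2 fold change was -0.54 ± 0.226 (SE, adjusted p = 0.424, edgeR). Without noninduced 1 it was -0.31, without noninduced 1 and 3 -0.27, and without noninduced 1, 2 and 3, the libraries of high mitochondrial DNA share, -0.10. Of the 50-base stretches of the main Gapdh transcript 78.3% also occur in other annotated genes, 70 of which hold at least 10% of them, and the Gapdh count stood at 0.502 of the level its FPKM would give. How reads with several origins were counted is not given in the sources used here, so the Gapdh counts are uncertain.

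Aldoa, which splits the 6-carbon sugar, had 4830, 5630, 5670, 4970, 4660 and 4320 CPM in Parkin KO libraries and 7220, 6600, 5840, 4500, 4220 and 4960 CPM in noninduced libraries. Noninduced 1, 2 and 3 were highest and noninduced 5 lowest, so the noninduced group enclosed all Parkin KO values (log2 fold change -0.15 ± 0.144, SE; 0.13 without noninduced 1, 2 and 3). Tpi1, triose phosphate isomerase, averaged 827 ± 35.4 CPM in Parkin KO hearts, against 780 ± 78.5 CPM in the noninduced hearts. Pgk1, an X-linked kinase that makes the first ATP of glycolysis, averaged 207 ± 6.68 CPM in Parkin KO hearts, against 189 ± 18.3 CPM in the noninduced hearts, and varied least of the 34 tested genes among Parkin KO libraries, by 3.23%. Pkm, the pyruvate kinase of muscle, averaged 1980 ± 155 CPM in Parkin KO hearts, against 1810 ± 188 CPM in the noninduced hearts (log2 fold change 0.13, interval -0.08 to 0.34). Eno3, the muscle enolase, averaged 1230 ± 76.8 CPM in Parkin KO hearts, against 1050 ± 218 CPM in the noninduced hearts (0.24, interval -0.03 to 0.51). Eno1, the general enolase, averaged 11.4 ± 2.19 CPM in Parkin KO hearts, against 9.55 ± 2.91 CPM in the noninduced hearts (0.24, interval -0.18 to 0.66). Its counts reached 0.0566 of the level its FPKM would give, against 0.772 to 1.16 for the 33 genes other than Eno1 and Gapdh. Of its 50-base stretches 72.2% occur in other genes, mainly in the near copy Eno1b, so its 50 to 237 reads in a library and any ratio made from them are uncertain. Shared stretches also made up 68% of the main transcript of Pgk1, 34.4% of Pkm, 30.3% of Pdhb, 27% of Ldhb and 25.3% of Gpi1.

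Phosphoglycerate mutase moves the phosphate of 3-phosphoglycerate, and its muscle gene Pgam2 and general gene Pgam1 differed between the groups in opposite directions without passing the test. Pgam2 had 680, 665, 732, 689, 814 and 687 CPM in Parkin KO libraries 1 to 6, and 742, 654, 651, 561, 578 and 748 CPM in noninduced libraries 1 to 6. Pgam1 had 98.4, 94.7, 91.3, 77, 88.8 and 74.4 CPM in Parkin KO libraries and 114, 104, 114, 80, 83.4 and 100 CPM in noninduced libraries. Neither gene alone was at an unadjusted p under 0.05 (edgeR log2 fold change 0.12 ± 0.0949 for Pgam2 and -0.18 ± 0.107 for Pgam1, SE). Their start regions are shown because the pair had the smallest p among the isoform ratios below. They are RefSeq windows of 300 bases on GRCm38.p6 around the transcript start, read 5′ to 3′ on the gene's strand, with a match in capitals. For Pgam2 (chr11:5803747-5804046, minus strand) the capitals mark CTANNNNTA, with any base at N. This is a looser pattern than the letters bound by MEF2 factors of muscle. For Pgam1 (chr19:41911621-41911920, plus strand) they mark ACGTG, the core letters bound by hypoxia-inducible factors.
Pgam2: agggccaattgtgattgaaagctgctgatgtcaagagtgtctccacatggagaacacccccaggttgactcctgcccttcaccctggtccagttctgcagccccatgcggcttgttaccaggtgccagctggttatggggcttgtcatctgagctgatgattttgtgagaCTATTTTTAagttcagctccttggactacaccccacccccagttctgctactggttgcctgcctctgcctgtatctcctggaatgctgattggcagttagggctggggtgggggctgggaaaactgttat
Pgam1: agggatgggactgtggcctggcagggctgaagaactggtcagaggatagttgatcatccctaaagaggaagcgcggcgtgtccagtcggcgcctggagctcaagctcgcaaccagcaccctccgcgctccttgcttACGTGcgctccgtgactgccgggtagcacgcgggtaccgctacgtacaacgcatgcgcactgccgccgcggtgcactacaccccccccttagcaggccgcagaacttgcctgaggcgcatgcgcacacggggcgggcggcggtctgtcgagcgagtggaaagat

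Both letter patterns were searched on both strands. ACGTG was in 19.6% of 32851 RefSeq start windows of this length and in 19 of the 50 windows (38%) of the glucose-use genes, of which 33 matched a window by symbol. The 16 genes that hold it include Slc2a1, Hk1, Hk2, Pfkm, Aldoa, Gapdh, Pgk1, Pgam1, Pkm and Ldha. CTANNNNTA, the loose MEF2 pattern, was in 21% of all windows and 16% of those of the glucose-use genes, among them Pgam2, Ldha, Ldhb, Pdk2 and Gbe1. AAGGTCA, the letters of an estrogen-related receptor half-site, was in 4.72% of all windows and 6% of theirs (Eno1, Pfkfb1 and Tpi1), and the E-box CACGTG, which contains ACGTG, in 7.15% and 8%. These matches describe the letters and show no binding.

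Lactate dehydrogenase interconverts pyruvate and lactate, and its heart subunit Ldhb had the smallest unadjusted p of the 34 genes. Ldhb, on chromosome 6 from 142490249 to 142507957, had 1370, 1470, 1500, 1430, 1430 and 1530 CPM in Parkin KO libraries 1 to 6, and 1130, 1050, 1290, 1470, 1130 and 983 CPM in noninduced libraries 1 to 6. The Parkin KO libraries lay close together, with a coefficient of variation of 3.95%, and noninduced 4 lay among them while the other noninduced libraries lay below. The means were 1460 ± 57.5 CPM in Parkin KO hearts, against 1180 ± 176 CPM in the noninduced hearts (log2 fold change 0.31 ± 0.102, SE, adjusted p = 0.417, edgeR). Ldha, the muscle subunit, averaged 554 ± 66.8 CPM in Parkin KO hearts, against 469 ± 92 CPM in the noninduced hearts (0.24, interval -0.04 to 0.52). Ldhb made up 77.5% ± 2.34 of the FPKM of the pair in Parkin KO and 76.5% ± 4.5 in noninduced hearts.

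The pyruvate dehydrogenase complex commits pyruvate to oxidation. Of its 5 genes here 3 were higher in Parkin KO hearts at an unadjusted p under 0.05, against 5.82% of all genes tested. In female libraries alone, and without noninduced 1, 2 and 3, the unadjusted edgeR p of each of the 3 was above 0.05. Pdha1, the X-linked alpha subunit of the E1 component, had 567, 609, 544, 585, 549 and 633 CPM in Parkin KO libraries 1 to 6, and 405, 403, 527, 566, 511 and 443 CPM in noninduced libraries 1 to 6. Noninduced 4 was the single noninduced library within the Parkin KO range (log2 fold change 0.29 ± 0.0985, SE, adjusted p = 0.417, edgeR). Exons of Map3k15 on the opposite strand cover 16.1% of its exon bases, and these libraries cannot tell the strands apart. Pdhb, the beta subunit of E1, had 272, 258, 233, 268, 271 and 278 CPM in Parkin KO libraries and 201, 205, 235, 278, 225 and 236 CPM in noninduced libraries. Parkin KO 3 was low and noninduced 4 as high as the highest Parkin KO library (0.20 ± 0.0869, adjusted p = 0.432, edgeR). Dld, the E3 subunit that the complex shares with other dehydrogenases, had 110, 96.6, 79.1, 94.6, 93.3 and 116 CPM in Parkin KO libraries and 60.1, 74.1, 89.6, 89.1, 91.8 and 72 CPM in noninduced libraries. Parkin KO 3 lay inside the noninduced range and noninduced 1 was lowest (0.31 ± 0.117, adjusted p = 0.424, edgeR).

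The remaining subunits showed smaller differences. Dlat, the E2 core, averaged 341 ± 37.8 CPM in Parkin KO hearts, against 370 ± 88.5 CPM in the noninduced hearts, with noninduced 1 and 2 highest at 475 and 471 CPM (log2 fold change -0.12, interval -0.42 to 0.18). Pdhx, which ties E3 to the core, averaged 90 ± 9.05 CPM in Parkin KO hearts, against 83.8 ± 6.26 CPM in the noninduced hearts (0.10, interval -0.07 to 0.28). Among the kinases that switch the complex off, Pdk1 averaged 113 ± 13.3 CPM in Parkin KO hearts, against 97.9 ± 12.8 CPM in the noninduced hearts (0.20 ± 0.0998, SE). Pdk2, the most abundant kinase here, had 923, 1280, 1070, 977, 1070 and 904 CPM in Parkin KO libraries 1 to 6, and 1830, 1370, 1280, 982, 903 and 805 CPM in noninduced libraries 1 to 6. The noninduced libraries enclosed the Parkin KO range, with noninduced 1 highest and noninduced 6 lowest (-0.20 ± 0.177, SE; 0.02 without noninduced 1 and 3). Pdk1 had 127, 100, 102, 101, 120 and 127 CPM in Parkin KO libraries and 88.6, 96.3, 87.8, 95, 97 and 123 CPM in noninduced libraries, of which only noninduced 6 reached the Parkin KO range. Pdp1, the phosphatase that switches the complex on, averaged 17.2 ± 3.99 CPM in Parkin KO hearts, against 20.3 ± 3.63 CPM in the noninduced hearts.

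The 5 glycogen genes had log2 fold changes from -0.04 to 0.11, and each 95% confidence interval included 0. Pygm, the muscle glycogen phosphorylase, averaged 1870 ± 134 CPM in Parkin KO hearts, against 1830 ± 284 CPM in the noninduced hearts. Pygb, the brain phosphorylase that the heart also makes, averaged 790 ± 118 CPM in Parkin KO hearts, against 746 ± 231 CPM in the noninduced hearts, and the replicate numbered 4 was highest in each group, with 1010 CPM in the Parkin KO group and 1190 CPM in the noninduced group. Gys1, muscle glycogen synthase, averaged 241 ± 23 CPM in Parkin KO hearts, against 234 ± 38.3 CPM in the noninduced hearts. Gbe1, the branching enzyme, averaged 16.9 ± 5.09 and Phka1, a regulatory subunit of phosphorylase kinase on the X chromosome, 36 ± 6.02 CPM in Parkin KO hearts, against 17.3 ± 2.19 and 33.3 ± 3.11 CPM in noninduced hearts.

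In all, 9 pairs of isoforms were compared as the log2 ratio of their reads within each library, which needs no scaling between libraries. None passed after adjustment over the 9 pairs. Pgam2 over Pgam1 had the smallest p, with log2 ratios of 2.79, 2.81, 3.0, 3.16, 3.20 and 3.21 in Parkin KO libraries 1 to 6 and 2.71, 2.65, 2.51, 2.81, 2.79 and 2.90 in noninduced libraries 1 to 6. All 6 Parkin KO libraries lay above the noninduced mean, and Parkin KO 1 and 2 lay within the noninduced range. The means were 3.03 ± 0.19 in Parkin KO and 2.73 ± 0.14 in noninduced libraries, a difference of 0.30 (exact two-sided permutation p = 0.0195, adjusted p = 0.175); without noninduced 1 and 3 it was 0.24. Of the 50-base stretches of Pgam1 41.5% recur in other genes, mostly Pgam1-ps2, so the Pgam1 side of the ratio is uncertain.

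Hk2 over Hk1 had log2 ratios of 0.37, 0.38, 0.35, 0.70, 0.12 and 0.52 in Parkin KO libraries and -0.23, 0.05, 0.14, 0.70, 0.23 and -0.03 in noninduced libraries. Noninduced 4 equalled the highest Parkin KO library and Parkin KO 5 was the lowest of its group (difference 0.26, exact permutation p = 0.119, adjusted p = 0.536). Pdk2 over Pdk1 had 2.86, 3.68, 3.40, 3.27, 3.16 and 2.83 in Parkin KO libraries and 4.36, 3.83, 3.87, 3.37, 3.22 and 2.71 in noninduced libraries. Noninduced 1, 2 and 3 were above every Parkin KO library and noninduced 6 below all of them (difference -0.36, exact permutation p = 0.212, adjusted p = 0.636; 0.10 without noninduced 1, 2 and 3). The other 6 pairs had differences from -0.08 to 0.12 and adjusted p = 0.994 each in the exact permutation test. Per length, the gene named first was the more abundant in 12 of 12 libraries for every pair except Hk2 over Hk1, where it was in 3 of 12. The gene named first is the muscle- or heart-type isoform in each pair other than Pdk2 over Pdk1. Pfkm made up 87.1% ± 1.38 of the phosphofructokinase FPKM in Parkin KO and 86.5% ± 3.97 in noninduced hearts, and Eno3 90.2% ± 0.539 of the enolase FPKM in Parkin KO and 88.7% ± 3.28 in noninduced hearts.

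**Figure D4:**
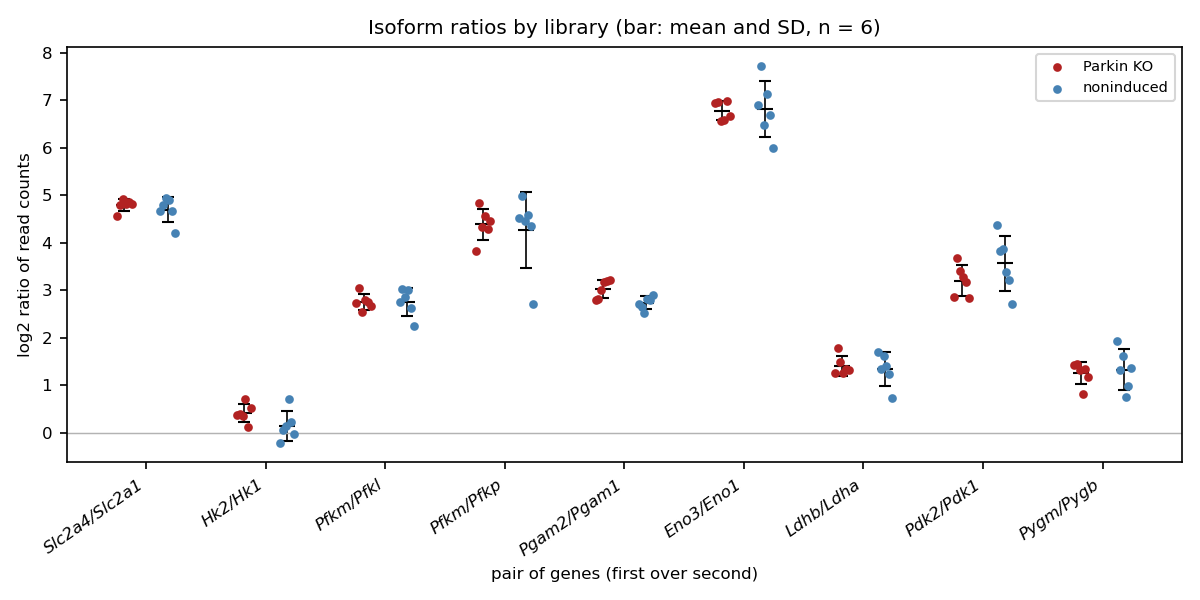
Log2 ratio of read counts of 2 isoform genes (y axis) in each library, by pair (x axis, first gene over second), with Parkin KO in red on the left and noninduced in blue on the right of each pair. Bars give the mean and SD (n = 6); the Parkin KO mean for Pgam2 over Pgam1 is 3.03 against 2.73 in noninduced, and noninduced 6 is lowest for Pfkm over Pfkp at 2.70.

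The libraries that stand apart moved with many of these genes. The library labelled noninduced 1 was highest of all 12 for 8 of the 34 genes (Slc2a1, Slc2a4, Aldoa, Gapdh, Pgam1, Dlat, Pdk2 and Pygm) and lowest for 5. Noninduced 6, with the fewest cardiomyocyte marker reads, was lowest for 10, among them Slc2a4, Pfkm, Eno3, Ldhb and Pygm, and noninduced 2 was lowest for 6. The same counts over all genes are not given here, so these do not set the 34 genes apart from other genes. Without noninduced 1 and 3 the log2 fold changes were 0.26 for Pfkm, 0.25 for Pfkl, 0.32 for Ldhb, 0.26 for Pdha1, 0.15 for Pdhb and 0.25 for Dld. There 3 genes (Ldhb, Pdha1 and Dld) remained higher at an unadjusted p under 0.05 in edgeR, against 352 of 13249 genes over all. Among female libraries alone they were 0.34, 0.38, 0.31, 0.28, 0.17 and 0.29 in the same order. In that fit 2 of the 34 genes were higher at an unadjusted p under 0.05, against 286 of 13321 genes over all. Of the genes just listed, Pfkl alone was under 0.05 there (edgeR, unadjusted p = 0.0328). Without noninduced 1, 2 and 3 the value for Pfkl was 0.14 and for Pdhb 0.09. In whole tissue, more cardiomyocytes and more RNA in each of them cannot be told apart, and the part of the cardiomyocyte marker sum in these values was not tested.

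**Figure D5:**
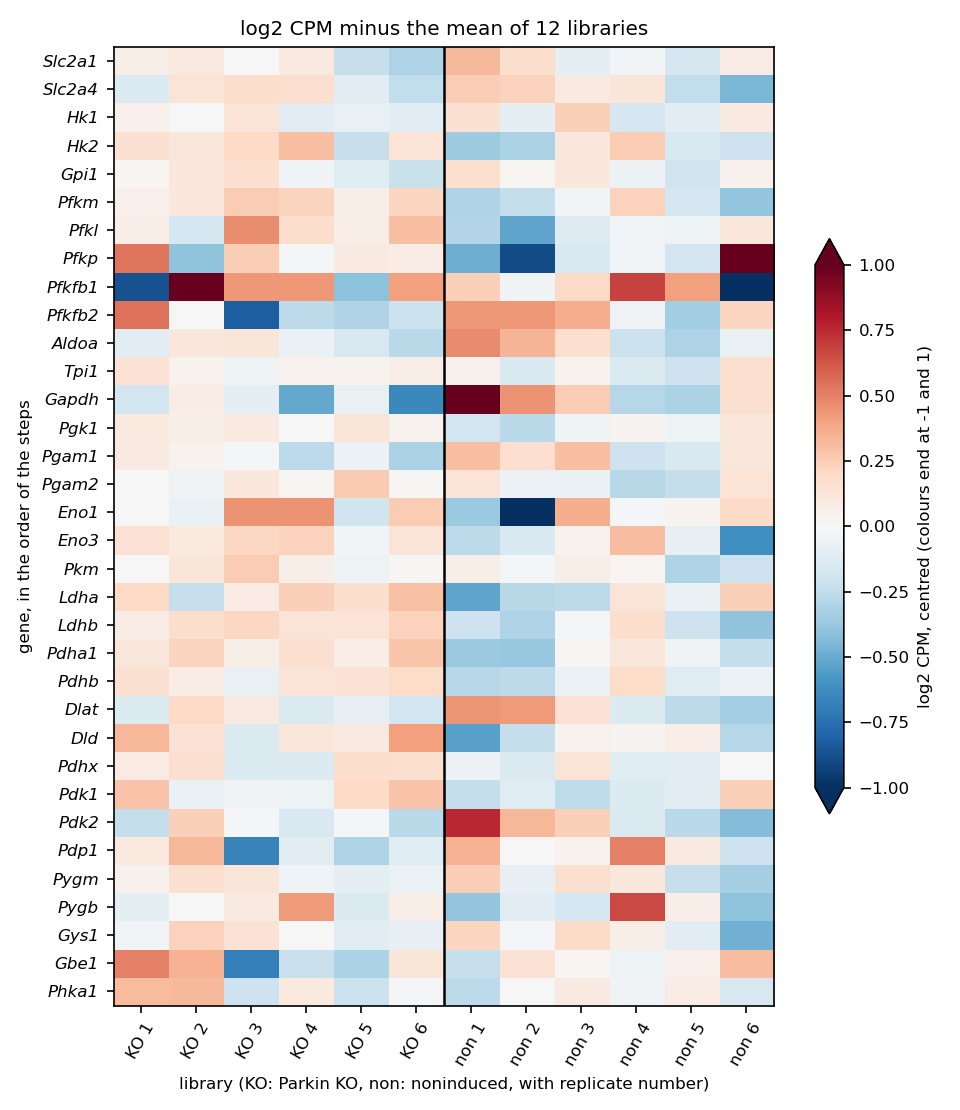
Log2 CPM of the 34 tested genes (y axis, in the order of the steps) in each library (x axis, Parkin KO left of the line and noninduced right of it), centred on the mean of the 12 libraries. Colours end at -1 and 1. Noninduced 1 is red for Gapdh, Pdk2, Aldoa and Dlat, darkest for Gapdh, and noninduced 6 is blue for Slc2a4, Eno3, Ldhb and Gys1.

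Other genes of glucose use, 80 listed and 72 tested, gave 9 higher (12.5%, against 5.82% of all genes) and 4 lower (5.56%, against 5.54% of all genes) in Parkin KO hearts at an unadjusted p under 0.05, with 0 past the adjusted threshold and a median log2 fold change of 0.02. Pdk4, the kinase that shuts the pyruvate dehydrogenase complex in fasting, had 105, 426, 220, 191, 399 and 621 CPM in Parkin KO libraries 1 to 6, and 140, 118, 212, 202, 219 and 109 CPM in noninduced libraries 1 to 6. The high values were those of the male Parkin KO libraries 2, 5 and 6, and the other 3 lay in or near the noninduced range. The log2 fold change was 0.97 ± 0.345 (SE, adjusted p = 0.417, edgeR), and 0.13 among female libraries alone. Pdk4 made up 15.6% ± 7.98 of the FPKM of the 4 kinases in Parkin KO and 8.58% ± 3.32 in noninduced hearts. Libraries read as male alone were in the Parkin KO group only, and noninduced 3 held reads of both sexes, so sex and genotype cannot be told apart for these libraries.

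Among the other genes at an unadjusted p under 0.05 that were higher in Parkin KO hearts, Ppp1r3d, a subunit that brings protein phosphatase 1 to glycogen, averaged 19.9 ± 2.97 CPM in Parkin KO hearts, against 14.3 ± 3.45 CPM in the noninduced hearts (log2 fold change 0.47, adjusted p = 0.417, edgeR). Pgm2, a phosphoglucomutase, averaged 309 ± 20.1 CPM in Parkin KO hearts, against 268 ± 22.5 CPM in the noninduced hearts (0.20). Fbp2, the muscle fructose bisphosphatase, averaged 23.6 ± 7.75 CPM in Parkin KO hearts, against 14.6 ± 5.69 CPM in the noninduced hearts (0.68, and 0.42 among female libraries). Mpc1 and Mpc2 form the carrier that brings pyruvate into mitochondria. Mpc1 had 96.5, 91.8, 106, 101, 119 and 110 CPM in Parkin KO libraries and 57.1, 46.2, 75.6, 95.9, 97.8 and 103 CPM in noninduced libraries, where noninduced 1, 2 and 3 were low (0.39, and 0.06 without these 3). Mpc2 averaged 137 ± 18.2 CPM in Parkin KO hearts, against 116 ± 15.1 CPM in the noninduced hearts (0.23). Counts of Mpc1 and Mpc2 stood at 0.538 and 0.703 of the level their FPKM would give, so they are uncertain.

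In the same list 4 genes were lower at an unadjusted p under 0.05. Irs2, which links the insulin receptor to its signals, had 112, 21.1, 26.2, 31.1, 14.9 and 17 CPM in Parkin KO libraries and 227, 148, 107, 31.6, 26.2 and 32.3 CPM in noninduced libraries. Noninduced 1, 2 and 3 and Parkin KO 1 were high (log2 fold change -1.36, and 0.29 without noninduced 1, 2 and 3). Irs2 counts stood at 0.693 of the level its FPKM would give. Tbc1d1, a regulator of GLUT4 vesicles, averaged 16.2 ± 1.92 CPM in Parkin KO hearts, against 28.6 ± 19.3 CPM in the noninduced hearts, with noninduced 2 and 5 highest at 37.6 and 64.2 CPM, which also hold high atrial genes, while noninduced 6, high in atrial genes too, had 16.3 CPM (-0.82, and -0.11 without noninduced 2 and 5). Mlxipl, which encodes the glucose-sensing factor ChREBP, averaged 75.5 ± 14.5 CPM in Parkin KO hearts, against 104 ± 34.8 CPM in the noninduced hearts (-0.46, and -0.20 without noninduced 1 and 3). Hif1a, Txnip and Pfkfb3, regulators of glycolysis and glucose uptake, had log2 fold changes of 0.21, 0.37 and 0.17, and their confidence intervals included 0. Among female libraries alone Txnip was at -0.11 and Pfkfb3 at -0.10, and Txnip stood at 711, 605 and 871 CPM in the male Parkin KO libraries 2, 5 and 6, at 334 to 381 CPM in Parkin KO 1, 3 and 4, and at 308 to 607 CPM in noninduced libraries, with noninduced 3 highest.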

How the data were processed

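The authors deposited whole read counts per gene symbol and a table of FPKM values. The submitters' processing notes name TopHat2 2.0.10 with Bowtie2, HTSeq and Cufflinks 2.1, and mouse build mm10. The gene annotation and how reads of several origins were counted are stated in no source used here. Columns marked as wild type were taken as noninduced, matched on their number. No label says whether hearts shared litters or batches. The p-values treat the hearts as independent and measure the spread between them.

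The count test was edgeR 4.0.16 in R 4.3.3 (TMM, filterByExpr, quasi-likelihood F test on group, two-sided, Benjamini-Hochberg over 13050 genes, threshold 0.05). SEs and 95% intervals derive from the estimate and the F statistic. CPM use TMM-scaled library sizes, and 1 count was worth 0.0592 to 0.0861 CPM. Isoform ratios (0.5 reads added to each count) and library measures were compared by exact permutation over the 924 splits of 12 libraries. Alternatives used DESeq2 1.42.0, limma 3.58.1 (voom, and log2(FPKM + 1)), other scalings and filters, a sex term, a replicate block and libraries left out. The code was tested on simulated counts. No 2 libraries of a group agreed within sampling noise.

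The members, the lists of other genes and the markers were chosen with earlier results of these data known. Values in every library are given for the members at an unadjusted p under 0.05, the 3 isoform pairs of smallest p and the 3 members of highest FPKM, and those of further genes were added after their values were seen. Of the other genes those of smallest p are named (up to 5 in each direction), with Pdk4, Pfkfb3, Hif1a, Txnip, Mpc1 and Mpc2. Positions and shared 50-base stretches come from GENCODE on GRCm38 (mm10). Values of the targeted gene and of another gene named by this rule are not reported here.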

Additional observations from a re-analysis of the deposited data

Results flagged for a closer look

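In 112 groups of 6 values (2 groups for each gene or isoform ratio), 8 held a highest or lowest library far from the rest, and chance flags about 1 in 20 groups. Noninduced 6, the library with the fewest cardiomyocyte marker reads, was highest of its group for Pfkp at 131 CPM and for Pdk1 at 123 CPM. It was lowest for the log2 ratios of Slc2a4 over Slc2a1, at 4.21, and of Pfkm over Pfkp, at 2.70. Parkin KO 1 was lowest of its group for Slc2a4 over Slc2a1, at 4.56, and highest for Irs2, at 112 CPM. Pygb was highest in Parkin KO 4, at 1010 CPM, and in noninduced 4, at 1190 CPM.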

How the results depend on the processing

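No member passed the adjusted threshold under any of the 26 alternatives. Over all genes 10 passed in DESeq2 and 1 without noninduced 1 and 3 or without noninduced 1, 2 and 3 (the last chosen after seeing the data). The number of members higher at an unadjusted p under 0.05, 6 in the main analysis, was 3 in each FPKM analysis, 2 in female libraries alone, 3 without noninduced 1 and 3, 2 without noninduced 2 and 5, and 1 without noninduced 1, 2 and 3. The count over all genes moved too. It was 760 of 13050 in the main analysis, 631 to 747 in the FPKM analyses and 286 of 13321 in female libraries alone. It was 352 of 13249 without noninduced 1 and 3, 478 of 13187 without noninduced 2 and 5, and 262 of 13397 without noninduced 1, 2 and 3. The number of members lower, 1 in the main analysis, was 0 with FPKM (pseudocount 1, with or without the filter), with a sex term, in female libraries, and without noninduced 1 and 3 or 1, 2 and 3. Over all genes 723 were lower in the main analysis. In these alternatives 557 and 723 (FPKM), 402 (sex term), 342 (female libraries), 640 and 549 (noninduced libraries left out) were lower. The sex-term fit left out noninduced 3 and held males in the Parkin KO group alone. Its fold changes therefore come from the female libraries, and it is no separate check beside the fit on those libraries. Leaving out each library in turn gave 3 (without Parkin KO 6 or noninduced 1) to 10 (without noninduced 6) members higher and 0 (without Parkin KO 4, Parkin KO 6 or noninduced 1) to 3 (without noninduced 5) lower. Over all genes the same runs gave 360 to 1002 higher and 520 to 1129 lower. With the replicate number as a block, 10 members were higher and 2 lower, against 930 and 770 of all genes. Slc2a4 stood at 0.0022 there, and no call at the adjusted threshold changed. Deviations of same-numbered hearts from their group means correlated between -0.111 and 0.2, and for 1 of 6 numbers the Parkin KO heart correlated best with its own number. No label says whether same-numbered hearts shared a litter or a batch, and these correlations cannot settle it. The causes were not tested.

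Of 47 gene results, those of the tested members and of the other genes named, 32 kept their sign throughout. Most of the other genes were named for a small p in these same data, which favours a stable sign. With FPKM the log2 fold change of Slc2a4 was 0.03. With a sex term or in female libraries alone, Slc2a4 was 0.07, Hk1 and Gpi1 0.05, Pfkfb3 -0.10 and Txnip -0.11. Without noninduced 1 and 3, Slc2a4 was 0.06, Hk1 0.04, Gpi1 0.02, Pfkp -0.14, Pdk2 0.02 and Pygb -0.05. Without noninduced 2 and 5, Pfkp was -0.19 and Pygm -0.04. Without noninduced 1, 2 and 3, Slc2a4 was 0.17, Hk1 0.03, Gpi1 0.05, Pfkp -0.38, Aldoa 0.13, Dlat 0.20, Pdk2 0.20, Pygb -0.11, Irs2 0.29 and Pfkfb3 -0.02. Leaving out each library in turn gave -0.10 to 0.03 for Slc2a4, -0.09 to 0.0054 for Hk1, -0.08 to 0.0048 for Gpi1, -0.12 to 0.43 for Pfkp, -0.03 to 0.36 for Pfkfb1, -0.04 to 0.07 for Pygm, -0.01 to 0.25 for Pygb, -0.05 to 0.08 for Gys1, -0.16 to 0.06 for Gbe1 and -0.17 to 0.30 for Pfkfb3.

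For the isoform log ratio Pfkm/Pfkl the difference was 2.4e-05 with FPKM, 0.02 without noninduced 1 and 3, 0.04 without noninduced 2 and 5 and 0.12 without noninduced 1, 2 and 3, for Eno3/Eno1 0.19 with FPKM, 0.16 without noninduced 2 and 5 and 0.18 without noninduced 1, 2 and 3, for Pygm/Pygb 0.15 without noninduced 1 and 3 and 0.22 without noninduced 1, 2 and 3, and for Pdk2 over Pdk1 0.10 in that last case. Leaving out each library in turn gave -0.10 to 0.06 for Pfkm over Pfkl, -0.19 to 0.26 for Pfkm over Pfkp, -0.20 to 0.15 for Eno3 over Eno1, -0.06 to 0.14 for Ldhb over Ldha and -0.19 to 0.05 for Pygm over Pygb.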
